A study of Homo sapiens with 6 samples.

Results

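DNA replication and the supply of its building blocks were followed at the transcript level through 43 genes, all of which were found among the 60609 genes listed in each deposited table and all of which were tested. They were chosen by symbol from the known parts of the replication machinery, with no limit set on measured values, though earlier results of these data were known. They comprise the MCM2-7 helicase, origin licensing factors, helicase activators, DNA polymerases and primase, the sliding clamp and its loader, Okazaki fragment maturation, single-strand binding, nucleotide supply and G1/S regulators. Enzymes that hold iron (*POLD1*, *POLE*, *PRIM2* and *RRM2*) are 4 of the 43, and they were set beside the other 39.

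RNA was sequenced from OCI-AML5 cells, an established human acute myeloid leukemia line grown in aMEM with 10% heat-inactivated serum and GM-CSF at 10 ng/mL, conditions common to every library. In 3 libraries the cells had been given DMSO, the solvent, for 24 hours, and in 3 libraries S767 at 1 μM for the same time. S767 is a small molecule that the study took from a screen of leukemia specimens. The labels number the libraries of each group 1 to 3 and do not say whether they came from separate cultures, and the study's methods call the treated cells triplicates without saying more, so the P values measure the spread between these libraries, which may be technical.

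Replication origins are licensed in G1 when the origin recognition complex, CDC6 and CDT1 load the ring-shaped MCM2-7 helicase onto DNA. In S phase CDC45 and the GINS complex join MCM2-7 to form the active helicase, primase and polymerase α start each strand, polymerases δ and ε extend it on the PCNA clamp, and FEN1 and LIG1 seal the lagging strand. Ribonucleotide reductase, built from RRM1 and RRM2, makes the deoxynucleotides with the help of an iron-bound radical in RRM2, while POLD1, POLE and PRIM2 each hold an iron-sulfur cluster. Many of these genes are transcribed at the G1/S boundary by E2F factors, which makes them a common readout of proliferation in leukemia cells.

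Gene counts summed to between 149994700 and 258029564 fragments in a library, and each of the 43 genes had between 2261 and 213176 fragments in every library. Counting error was thus 0.217% to 2.10% of a value, and the coefficient of variation between libraries was below it for 1 of the 43 genes in DMSO (*GINS2*) and for 3 in S767 (*E2F1*, *POLE2* and *RFC4*). The line expressed its labelled lineage: 6 of 9 hematopoietic and myeloid markers lay above 1 TPM in every library, *SPI1*, *CD33* and *PTPRC* among them, and *CD34*, *KIT* and *ANPEP* did not. The 9 markers summed to 421 to 470 TPM in DMSO and 425 to 481 TPM in S767. Of 8 markers of other cell types, 1 (*PECAM1*) lay above 1 TPM in every library and 2 were listed at 0, and the 8 summed to 2.53 to 3.56 TPM in DMSO and 2.59 to 3.70 TPM in S767. Libraries with the same number deviated together, so values from a fit that holds the replicate number as a block stand beside those from the fit without it where a call or a count changed.

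The promoter letters are shown for 3 members as a feature that was not itself used to choose genes. Many of the 43 are known E2F targets, so a high share of E2F letters is no independent finding. RefSeq windows from 250 bases before to 50 bases after a gene's start (GRCh38.p14) were given for 36 of the 43 genes, in 45 windows. The letters TTTCCCGC, TTTCGCGC, TTTGCCGC and TTTGGCGC, searched on both strands and typical of E2F sites, were found in the windows of 18 of the 36 genes. They were in 40.0% of the 45 windows and in 3.31% of the 35116 windows of all genes. The 5 letters CCAAT, on either strand, were in 60.0% of the members' windows and in 34.6% of all windows. All 4 MCM2-7 genes with a window (*MCM2*, *MCM3*, *MCM6* and *MCM7*) held the E2F letters, as did 1 iron enzyme, *POLE*. In the stretches below, which end before any base that GENCODE 29 places in an exon, capitals mark the E2F letters. *MCM6* (chr2:135876444-135876693, minus strand) had 4 matches, in 2 pairs that overlap on opposite strands. *POLA1* (chrX:24693668-24693917, plus strand), the catalytic subunit of polymerase α, had 1, and *E2F1* itself (chr20:33686405-33686635, minus strand) had 1.
MCM6: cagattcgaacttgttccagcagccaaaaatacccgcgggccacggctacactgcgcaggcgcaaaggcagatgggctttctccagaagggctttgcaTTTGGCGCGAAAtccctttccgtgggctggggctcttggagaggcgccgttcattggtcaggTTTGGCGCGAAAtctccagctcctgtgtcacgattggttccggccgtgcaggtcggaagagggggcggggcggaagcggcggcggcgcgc
POLA1: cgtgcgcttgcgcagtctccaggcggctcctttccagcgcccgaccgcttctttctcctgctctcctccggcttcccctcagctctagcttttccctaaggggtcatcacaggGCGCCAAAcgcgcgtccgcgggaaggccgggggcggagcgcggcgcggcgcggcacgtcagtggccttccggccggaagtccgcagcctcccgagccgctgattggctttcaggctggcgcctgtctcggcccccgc
E2F1: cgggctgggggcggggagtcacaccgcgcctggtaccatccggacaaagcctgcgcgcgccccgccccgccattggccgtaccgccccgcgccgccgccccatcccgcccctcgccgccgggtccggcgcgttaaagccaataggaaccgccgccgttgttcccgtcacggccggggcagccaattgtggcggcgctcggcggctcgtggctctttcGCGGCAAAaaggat

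The 43 genes were well expressed. On the TPM scale, which is per length and so allows levels to be compared between genes, their means over the 6 libraries ran from 17.2 for *GINS3* to 445 for *PCNA*, with a median of 56.5. The median of the 20725 genes tested was 3.73 TPM, and 69.1% of them lay below *GINS3*. Above 100 TPM were 13 of the 43. The 5 highest were *PCNA* (445 TPM), the sliding clamp, *MCM7* (386), *MCM4* (324), *TYMS* (299), which makes thymidylate, and *RRM2* (214). Subunits of one complex did not lie at one level. The MCM2-7 genes ranged from 132 TPM for *MCM6* to 386 for *MCM7*. The catalytic subunit of polymerase δ, *POLD1*, had 111 TPM, its partner *POLD2* 161 and *POLD3* 27.1. The GINS genes lay between 17.2 and 40.6 TPM, below *CDC45* at 68.5. Within a treatment the libraries were close, with a median coefficient of variation over the 43 genes of 3.19% in DMSO and 2.56% in S767, and the highest was 10.6%, for *CCNE2*.

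Transcripts of the replication machinery hardly differed between S767 and DMSO. Their log2 fold changes had a median of 0.01, beside -0.0002 over all genes tested, and 26 lay above 0 and 17 below (of all genes, 49.8% lay above 0). The extremes were *RRM2* at 0.13 and *MCM5* at -0.08, so that no gene of the 43 differed by more than 9.34% in the fitted value. In the quasi-likelihood test of edgeR, with P values adjusted by the Benjamini-Hochberg method, 0 of the 43 passed 0.05 without the block, where 1 of all 20725 genes did (0.00483%). At an unadjusted P under 0.05 there was 1 of the 43 (*RRM2*, higher in S767), beside 732 of all genes (3.53%, and 2.03% higher). Neither limma-voom nor DESeq2 without the block called any of the 43.

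Each 95% interval is for a single gene, is not adjusted for the number of genes and rests on the spread between these libraries. Over the 43 genes the intervals ran from -13.0% to 18.4%, and 42 of them held 0. Under the block, the median standard error fell from 0.05 to 0.03 on the log2 scale, the intervals ran from -8.93% to 13.5%, and 35 of them held 0. In that fit 1 of the 43 passed an adjusted p of 0.05, *RRM2*, which was higher, beside 670 of all genes (3.23%, and 2.16% higher). At an unadjusted P under 0.05 there were 8 of the 43, beside 16.8% of all genes. The 4 higher in S767 were *RRM2*, *CCNE1*, *LIG1* and *RPA1* (9.38% of all genes were higher at this limit), and the 4 lower were *MCM3*, *MCM5*, *MCM6* and *GINS2* (7.39% of all genes). In bulk RNA, a smaller share of cells in S phase and less RNA of these genes per cell cannot be told apart.

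The replicate number accounted for more of the variation than the treatment did. It held a median of 64.4% of the sum of squares of the 43 genes, against 13.2% for treatment, and was the larger of these in 34 of them. Over all genes tested these medians were 62.8% and 10.2%. Replicate number has more levels than treatment, so it would tend to hold the larger share even if neither had an effect. DMSO and S767 libraries did not overlap in 4 of the 43 genes, beside 9.21% of all genes: *TYMS* was higher in S767 (5.12% of all genes), and *MCM5*, *GINS2* and *FEN1* were lower (4.08% of all genes). All 3 pairs of same-numbered libraries moved up in 10 genes and down in 10, beside 19.9% and 17.8% of all genes.

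**Figure D1:**
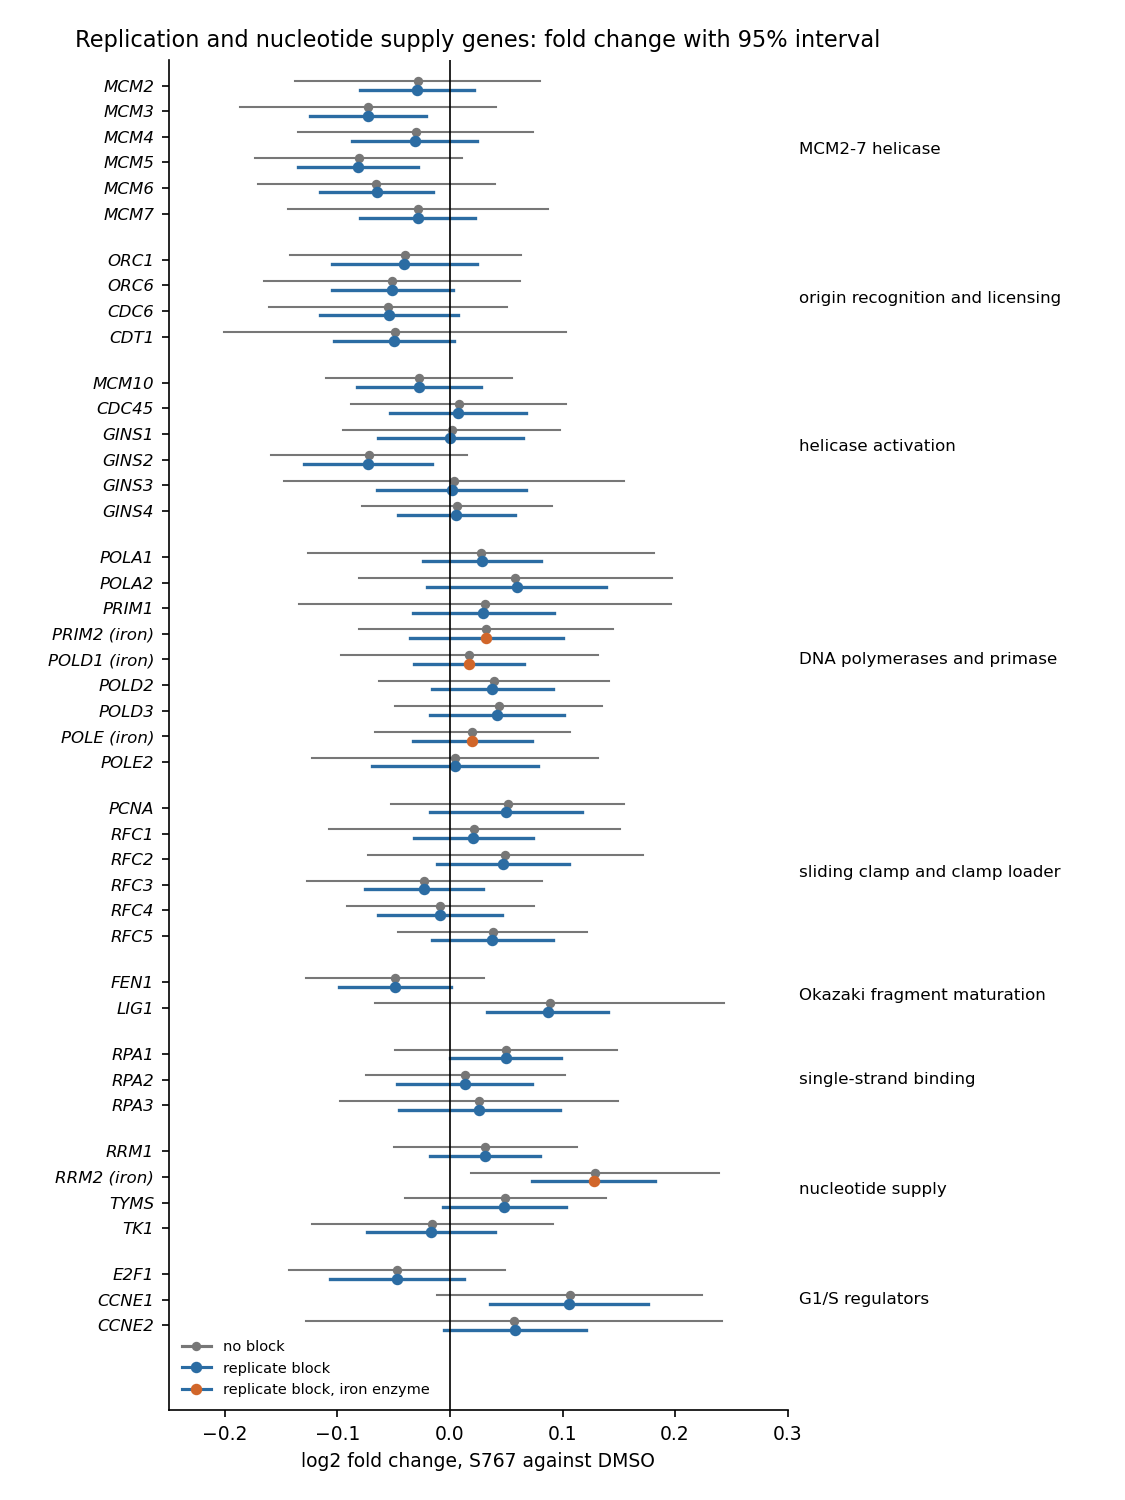
Log2 fold change of S767 against DMSO (x axis) for each of the 43 genes with its 95% interval, without the replicate block (grey) and with it (blue, iron enzymes in orange), grouped by role. Points lie between -0.08 for *MCM5* and 0.13 for *RRM2*, and the intervals with the block are narrower.

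The licensing genes lay slightly below 0. The 6 genes of the MCM2-7 helicase had log2 fold changes from -0.08 to -0.03, with a median of -0.05, 0 of 6 passed the adjusted limit with or without the block, and 5 of 6 were lower in all 3 pairs. *MCM4* was the exception, higher in pair 2. *MCM5* (ENSG00000100297.16, chromosome 22 from 35400063 to 35425430 in GENCODE 29) had 384, 391 and 396 CPM (normalised read counts scaled to the library's size with TMM factors) in DMSO and 355, 383 and 370 CPM in S767. Every S767 library lay below every DMSO library, the nearest being 383 against 384 CPM. The fitted log2 fold change was -0.08 (standard error 0.04, adjusted p = 1.00), and with the block -0.08 (standard error 0.02, adjusted p = 0.0979), both by edgeR. DESeq2 with the block called it (adjusted p = 0.0350).

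*MCM3* (ENSG00000112118.20, chromosome 6 from 52264009 to 52284881) had 344, 361 and 377 CPM in DMSO and 324, 352 and 352 CPM in S767. The groups overlapped, and the gene was lower in S767 in each pair. A log2 fold change of -0.07 was fitted (standard error 0.05), with an adjusted p of 0.126 under the block by edgeR. All 6 MCM2-7 genes stayed below 0, with medians from -0.07 to -0.04, when any 1 pair was left out of the fit with the block. In the fit without the block 1 library mattered. Without S767 replicate 1, the library in which the MCM2-7 genes were lowest, *MCM2*, *MCM4* and *MCM7* turned to log2 fold changes from 0.003 to 0.01, and the median of the 6 was -0.02.

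The loaders of the helicase went the same way by a like amount. *ORC1*, *ORC6*, *CDC6* and *CDT1* had log2 fold changes of -0.04, -0.05, -0.06 and -0.05, 0 of 4 had a P under 0.05 in either fit, and 3 of the 4 were lower in all 3 pairs. Their levels were 36.6, 59.2, 43.5 and 56.5 TPM. Among the helicase activators, *GINS2*, a subunit of the GINS complex, stood apart from *GINS1*, *GINS3*, *GINS4* and *CDC45*. The log2 fold changes of those others lay between 0.001 and 0.01. *GINS2* (ENSG00000131153.9, chromosome 16 from 85676198 to 85690073) had 69.6, 69.1 and 68.9 CPM in DMSO and 64.0, 68.0 and 65.6 CPM in S767. No library of one group reached the other. The log2 fold change was -0.07 (standard error 0.04, adjusted p = 1.00, and 0.173 with the block, edgeR quasi-likelihood). *MCM10*, which helps to start the helicase, had -0.03.

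DNA polymerase and primase genes lay at or just above 0. All 9 had log2 fold changes from 0.005 to 0.06, with a median of 0.03, and 0 of 9 had a P under 0.05 in either fit. *POLE2*, the lowest, was at -0.01 with RSEM expected counts, and 4 of the 9 lay below 0 without S767 replicate 2. Of the iron-sulfur enzymes, *POLD1* and *POLE* lay low in this range and *PRIM2* near its middle. *POLD1* (ENSG00000062822.14, chromosome 19 from 50384204 to 50418016), the catalytic subunit of polymerase δ, had 157, 171 and 166 CPM in DMSO and 159, 175 and 166 CPM in S767. The groups overlapped almost wholly. The log2 fold change of *POLD1* was 0.02 (standard error 0.05, adjusted p = 1.00 by edgeR), with a 95% interval from -6.48% to 9.51% and with the block from -2.21% to 4.69%.

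*POLE* (ENSG00000177084.17, chromosome 12 from 132623753 to 132687365), the catalytic subunit of polymerase ε, had 200.0, 207 and 210.0 CPM in DMSO and 206, 215 and 205 CPM in S767. Pairs 1 and 2 moved up and pair 3 moved down. The log2 fold change of *POLE* was 0.02 (standard error 0.04, adjusted p = 1.00), with an interval of -2.27% to 5.17% with the block. *PRIM2* (ENSG00000146143.19, chromosome 6 from 57314805 to 57646849), the large primase subunit, had 33.2, 31.8 and 30.2 CPM in DMSO and 32.3, 33.1 and 32.0 CPM in S767. The S767 libraries lay inside the range of the DMSO libraries. The log2 fold change of *PRIM2* was 0.03 (standard error 0.05, adjusted p = 1.00), and its interval with the block was -2.45% to 7.19%. The adjusted p values of both genes are from edgeR's quasi-likelihood test.

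The balance of subunits was compared as TPM ratios, and the groups overlapped in each of these. The TPM ratio of *POLD1* to *POLD2* was 0.693 ± 0.00711 in DMSO and 0.682 ± 0.0149 in S767 (SD, n = 3 each; exact permutation test, two-sided p = 0.4), and it was lower in S767 in each pair. The ratio of *PRIM2* to *PRIM1* was 0.471 ± 0.0538 and 0.463 ± 0.0378 (p = 0.8 by the same exact test), and that of *POLE* to *POLE2* 2.40 ± 0.188 and 2.40 ± 0.0631 (p = 1.0 by the same exact test). Of the pairs, 1 was higher and 2 were lower for each of these last ratios. With 3 libraries against 3, no p below 0.1 can be reached.

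The clamp, its loader and the lagging strand enzymes were split. *PCNA* had a log2 fold change of 0.05, *RFC1* to *RFC5*, the subunits of the loader, from -0.02 to 0.05, and 0 of these 6 had a P under 0.05 in either fit. *FEN1*, the flap nuclease of Okazaki fragments, had 190, 192 and 194 CPM in DMSO and 182, 189 and 185 CPM in S767, without overlap, and a log2 fold change of -0.05 (adjusted p = 0.305 with the block, edgeR quasi-likelihood). *LIG1* (ENSG00000105486.14, chromosome 19 from 48115445 to 48170603), the ligase that seals those fragments, had 96.4, 109 and 104 CPM in DMSO and 101, 120 and 108 CPM in S767. The groups overlapped, and each pair moved up. On the log2 scale *LIG1* differed by 0.09 (standard error 0.07, adjusted p = 1.00, and 0.0814 with the block, by edgeR). The single-strand binding genes *RPA1*, *RPA2* and *RPA3* had log2 fold changes of 0.05, 0.01 and 0.03, and *RPA1*, with a P under 0.05 in the fit with the block, had an adjusted p of 0.297 there (edgeR quasi-likelihood).

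*RRM2*, the small subunit of ribonucleotide reductase that holds the di-iron centre, was the one gene of the 43 called in the fit with the block. It lies on chromosome 2 from 10120698 to 10131419 (ENSG00000171848.15). It had 395, 413 and 390 CPM in DMSO and 445, 455 and 410 CPM in S767. The lowest S767 library lay just under the highest DMSO library, so the groups overlapped, and each pair moved up, by 0.17, 0.14 and 0.07 on the log2 scale. The change was 9.34% (95% interval 1.30% to 18.0%), or 0.13 on the log2 scale (standard error 0.05, adjusted p = 1.00 by edgeR). With the block the standard error was 0.03 and the adjusted p 0.0186, and *RRM2* rose by 5.21% to 13.5% (95% interval). Over the 24 alternatives its adjusted p ranged from 0.000351 to 1.00. It passed in 7 of the 8 that hold the block, the exception being the fit without pair 2, and in 0 of the other 16. Its log2 fold change stayed between 0.10 and 0.17.

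*RRM1*, the large subunit, had 236, 232 and 230 CPM in DMSO and 242, 240 and 232 CPM in S767, a log2 fold change of 0.03. The TPM ratio of *RRM2* to *RRM1* was 1.91 ± 0.0887 in DMSO and 2.05 ± 0.115 in S767 (SD, n = 3 each; exact permutation test, two-sided p = 0.3). It was higher in each pair, while the groups overlapped. *TYMS* had 314, 317 and 318 CPM in DMSO and 319, 341 and 321 CPM in S767, with no overlap and a log2 fold change of 0.05 (adjusted p = 0.363 with the block, edgeR quasi-likelihood). *TK1*, the salvage kinase for thymidine, had a log2 fold change of -0.02 with overlapping libraries.

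Of the G1/S regulators, *CCNE1* (ENSG00000105173.14, chromosome 19 from 29811898 to 29824308), cyclin E1, had 30.2, 27.3 and 28.5 CPM in DMSO and 31.4, 31.1 and 30.1 CPM in S767. Just 1 DMSO library reached the S767 range. Its log2 fold change was 0.11 (standard error 0.05, adjusted p = 1.00, and 0.104 with the block, edgeR quasi-likelihood). *CCNE2*, cyclin E2, had a log2 fold change of 0.06 and *E2F1*, the transcription factor of the G1/S genes, -0.05, and neither had a P under 0.05 in either fit. Members with the E2F letters in their promoter window had a median log2 fold change of -0.01 and those with a window but without the letters 0.03.

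The iron enzymes lay slightly above the other genes in S767. Their median log2 fold change was 0.026 and that of the other 39 genes 0.005 in the fit, a difference of 0.021. All 4 iron enzymes lay above 0, *POLD1* at 0.02, *POLE* at 0.02, *PRIM2* at 0.03 and *RRM2* at 0.13, as did 22 of the 39. With a library or pair left out, the lowest values were -0.020 for *POLD1*, -0.0012 for *POLE* and -0.0029 for *PRIM2*, while *RRM2* stayed above 0. Taken library by library, as the median deviation from each gene's own mean, iron enzymes minus other genes was -0.04, -0.02 and -0.04 in DMSO and 0.05, 0.02 and -0.01 in S767. Every S767 library was above every DMSO library, the closest being -0.01 against -0.02, and the pairs differed by 0.10, 0.03 and 0.03. The means of -0.04 in DMSO and 0.02 in S767 differed by 0.06, beside an SD of 0.025 between libraries of one treatment. No test was made, since the genes were chosen. Without DMSO replicate 1 the difference of the fitted medians was 0.048, with RSEM expected counts 0.012 and with log2(TPM + 1) 0.0094. Singly, 0 of the 4 iron enzymes separated the groups, and 1 was higher in all 3 pairs. A small positive median was not particular to the iron enzymes. The 9 polymerase and primase genes, which include *POLD1*, *POLE* and *PRIM2*, had 0.031, with all 9 above 0. The 6 clamp and clamp loader genes had 0.030 and the 3 single-strand binding genes 0.026. The 6 MCM2-7 genes and the 4 origin recognition and licensing genes each had -0.05.

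**Figure D2:**
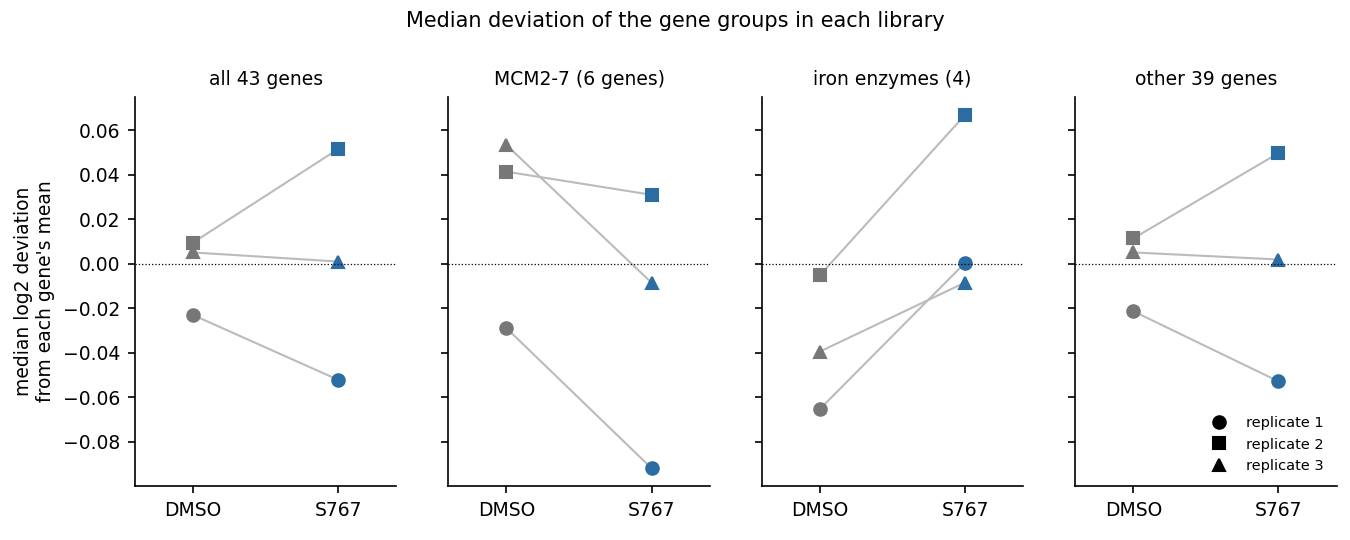
Median log2 deviation from each gene's own mean over the 6 libraries (y axis), by library, for all 43 genes, the 6 MCM2-7 genes, the 4 iron enzymes and the other 39 genes, with lines that join libraries of the same number. The median of the iron enzymes moved up and that of the MCM2-7 genes down in each pair. Singly, 1 of the 4 iron enzymes was higher and 5 of the 6 MCM2-7 genes were lower in all 3 pairs.

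Some members share exon bases with another gene on the same strand in GENCODE 29, and such fragments are ambiguous to a counter of whole genes. This held for 6 of the 43. RSEM, which divides shared fragments, gave *POLA2* 5.28 times the counted fragments, *PRIM1* 1.50 times, *POLD1* 1.21 times and *FEN1* 1.09 times, while *RRM2* and *POLD3* had 0.983 and 0.934. In the other 37 genes this ratio lay between 0.846 and 1.01. With the RSEM expected counts, *POLD1* had a log2 fold change of 0.01, *POLA2* of 0.05, *PRIM1* of 0.04 and *RRM2* of 0.12 (adjusted p = 0.0445 with the block, edgeR quasi-likelihood). Counts of *POLA2* therefore stand for a part of its transcripts.

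Around the 43 genes, 71 further genes of replication, nucleotide supply and G1/S control were tested. They were chosen with earlier results of these data known, so their counts beside the shares of all genes are no independent support. Their median log2 fold change was 0.01 with 39 above 0 and 32 below. Without the block 0 of 71 passed an adjusted p of 0.05, and 6 had a P under 0.05, 5 higher and 1 lower in S767 (2.03% and 1.51% of all genes). With the block 7 passed, all of them higher (2.16% of all genes). They were *CDKN1A* (log2 fold change 0.30, adjusted p = 0.000448) and *RRM2B* (0.25, adjusted p = 0.000473), both well known p53 targets, the fork protection gene *TIMELESS* (0.10, adjusted p = 0.0419), *SAMHD1*, which degrades deoxynucleotides (0.13, adjusted p = 0.0340), *SHMT1*, which feeds one-carbon units into thymidylate (0.11, adjusted p = 0.0381), and the repressive E2F genes *E2F7* (0.13, adjusted p = 0.0273) and *E2F8* (0.15, adjusted p = 0.0282), all by edgeR.

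*RRM2B* encodes the other small subunit of ribonucleotide reductase, which can stand in for RRM2 outside S phase. It had 79.0, 78.2 and 70.8 CPM in DMSO and 90.5, 92.6 and 87.3 CPM in S767. Every S767 library lay above every DMSO library, and the pairs differed by 0.20, 0.24 and 0.30 on the log2 scale. Without the block its log2 fold change was 0.25 (standard error 0.05, an unadjusted P under 0.05, adjusted p = 1.00 by edgeR). Over the 24 alternatives *RRM2B* passed an adjusted p of 0.05 in 7 of the 8 that hold the block and in 1 of the other 16. The TPM ratio of *RRM2* to *RRM2B* was 9.06, 8.75 and 9.19 in DMSO and 8.72, 7.95 and 7.84 in S767 (two-sided p = 0.1 by an exact permutation test, which can go no lower here). *RRM2* thus stayed the more abundant transcript in every library, at a ratio that was lower in each S767 library than in any DMSO library.

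*CDKN1A*, which encodes the cell cycle inhibitor p21, had 226, 137 and 161 CPM in DMSO and 261, 180 and 199 CPM in S767. Its replicate numbers differed more than its treatments, so that the groups overlapped while each pair moved up. Without the block its log2 fold change was 0.29 (standard error 0.19, adjusted p = 1.00, edgeR quasi-likelihood). *DCTPP1*, which clears modified deoxycytidine triphosphates, was the 1 gene of the 71 lower in S767 at a P under 0.05 without the block. It had 105, 108 and 103 CPM in DMSO and 91.5, 98.9 and 101 CPM in S767, without overlap. On the log2 scale the difference was -0.11 (standard error 0.05, adjusted p = 1.00, and 0.0637 with the block, edgeR quasi-likelihood). DESeq2 with the block called *DCTPP1* (adjusted p = 0.0274).

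**Figure D3:**
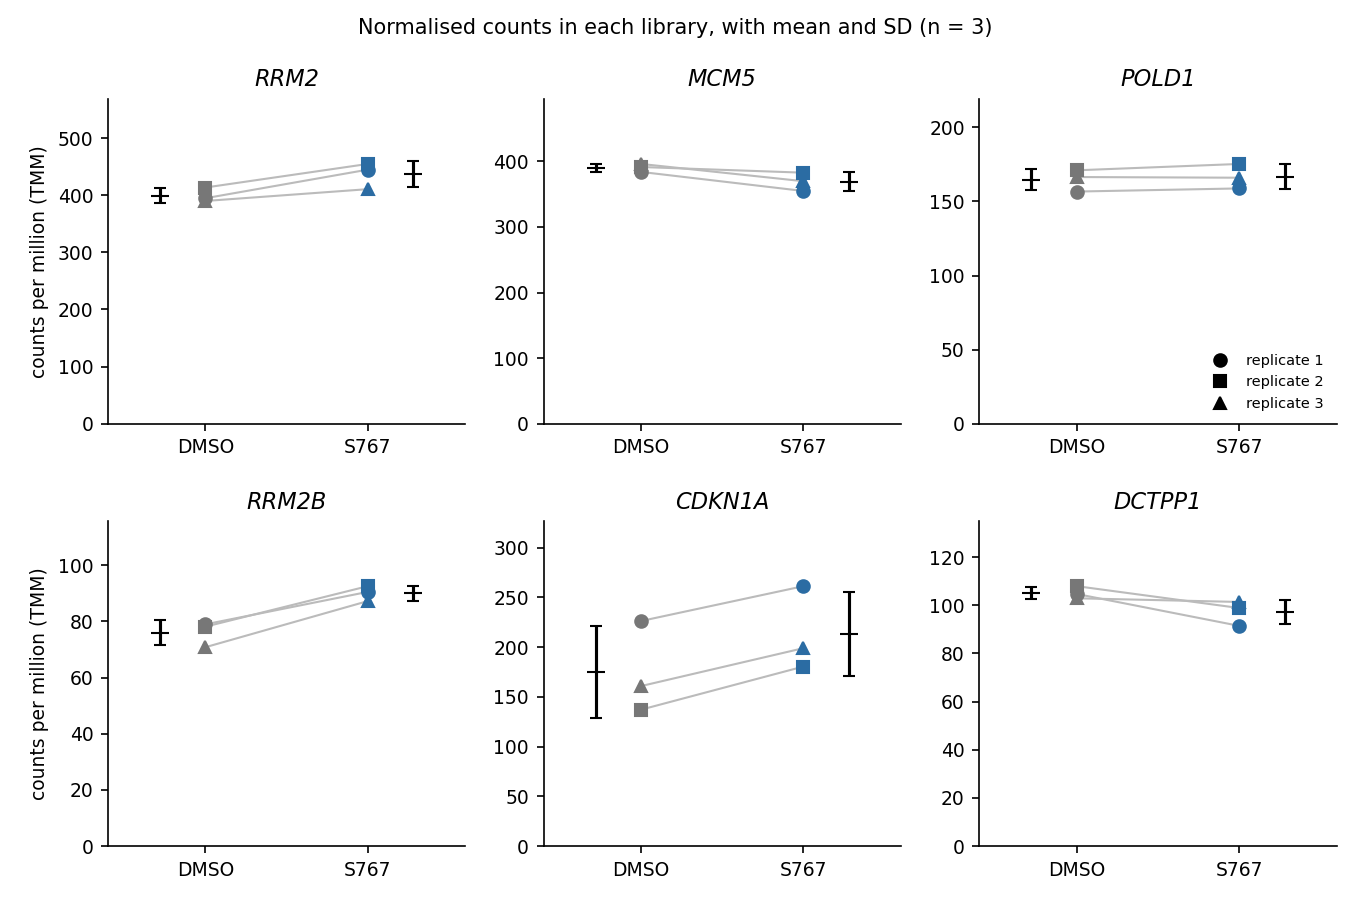
Normalised read counts in CPM (TMM factors, y axis from 0) of 6 genes in each library, with lines that join libraries of the same number and, beside them, the mean and SD (n = 3). *RRM2*, *RRM2B* and *CDKN1A* moved up in all 3 pairs, *MCM5* and *DCTPP1* moved down in all 3, and *POLD1* stayed between 157 and 175 CPM.

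Outside the replisome, 8 other DNA enzymes with an iron-sulfur cluster (helicases, nucleases and glycosylases of repair) had a median log2 fold change of 0.05, with 6 above 0 and 2 below. These genes too were chosen with earlier results known, so their counts beside the shares of all genes are no independent support. Without the block 0 of 8 passed the adjusted limit and 1 had a P under 0.05 (3.53% of all genes), *EXO5* (log2 fold change 0.19, standard error 0.07, adjusted p = 1.00, and 0.0769 with the block, by edgeR). With the block 1 passed (3.23% of all genes), the helicase *BRIP1* (log2 fold change 0.13, adjusted p = 0.0306, edgeR quasi-likelihood). *EXO5*, a nuclease, had 7.41, 6.99 and 6.77 CPM in DMSO and 7.86, 8.07 and 8.22 CPM in S767, without overlap.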

How the data were processed

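Stranded polyA mRNA libraries of OCI-AML5 cells, 3 with DMSO and 3 with S767, were analysed. Per the labels, the authors used STAR 2.7.1a, RSEM 1.2.28 and GRCh38, while their methods name a later RSEM release and trimming with Trimmomatic. The annotation release is not given in the sources used here. The deposited counts are whole, unnormalized fragments per gene, and the reverse-strand column was used, since the forward column held 6.44 to 6.58% of both. Summary lines that name no gene (19.7 to 20.7% of fragments) were left out. The authors also deposited RSEM expected counts (estimated counts, rounded here) and TPM values, which RSEM scales per length and to one total. Positions are from GENCODE 29, in which 58502 of 60609 gene identifiers occur (41747 in the same version, including 7 of the 43). The genes named here and the other lists were chosen with earlier results of these data known, so their agreement with those results is no independent support.

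The groups were compared with edgeR 4.0.16 in R 4.3.3 (TMM factors, filterByExpr with minimum count 10, quasi-likelihood F test, Benjamini-Hochberg adjustment over 20725 genes). The script was tested on simulated data. Single values were compared by exact permutation tests. Full values are given for the iron enzymes and for the 3 largest and 3 smallest fold changes. They are also given for members with a P under 0.05 without the block or an adjusted p under 0.05 with it. Genes of the other lists are named where either of those limits was passed. Values of other members are given where a group of subunits is described. Gene counts ranged from 149994700 to 258029564 per library, which gives a counting error of 0.217% to 2.10% for a member. Same-numbered libraries were treated as pairs, because their deviations from the group means over 6191 genes correlated at 0.78, 0.87 and 0.75. Those of other libraries correlated at -0.62 to -0.24. Deviations of a gene within a group sum to 0, so the negative values follow from the positive ones and add no support. The labels do not say what a number shares. Alternatives were limma-voom (limma 3.58.1), DESeq2 1.42.0, other scaling, other limits on low counts, both strands, RSEM counts, log2(TPM + 1) and log2(TPM + 0.1), the block, and leaving out each library or pair.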

Additional observations from a re-analysis of the deposited data

How the results depend on the processing

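Counting error was below the coefficient of variation between libraries for 42 of the 43 genes in DMSO and 40 in S767. Over the 24 alternatives the 43 log2 fold changes had a median between -0.016 and 0.025, and the difference between iron enzymes and other genes between 0.0094 and 0.048, which moved beyond its spread only without DMSO replicate 1 (0.048). The number of the 43 past an adjusted p of 0.05 (0 in the design without a block) was 1 with the replicate block in edgeR, in limma-voom, with RSEM expected counts or with library size alone, and 2 with the block in DESeq2. It was 0 under every alternative without the block. Of all genes tested, the block called 670 of 20725 in edgeR, 609 in limma-voom, 617 with library size alone, 645 in DESeq2 and 394 of 18851 with RSEM expected counts. With a library or pair left out, the number of the 43 ranged from 0 to 5. The 5 were in the block without pair 1, in which *RRM2*, *PCNA*, *CCNE1*, *LIG1* and *RFC2* passed. That fit called 2034 genes in all, and the block without pair 2 called 24. The number with a P under 0.05 (1) was 8 with the replicate block, 9 with the block in limma-voom or with library size alone, 10 with RSEM expected counts and the block, 7 with DESeq2 and the block, 2 with library size alone, and 3 with log2(TPM + 1) and with log2(TPM + 0.1). It ranged from 0 to 16 with a library or pair left out, 0 being the fit without DMSO replicate 3 and 16 the block without pair 1. Of all genes tested, 534 of 21078 and 4362 of 20629 passed this limit in those fits. With the block 3475 of 20725 passed in edgeR, 3428 in limma-voom, 3454 with library size alone, 2109 in DESeq2 and 3322 of 18851 with RSEM expected counts. Without it 729 of 20725 passed with library size alone, 1062 with log2(TPM + 1) and 1077 with log2(TPM + 0.1). The cause of these shifts was not tested.

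Added to the edgeR fit of the counts, the replicate block (pairing) changed no direction of a named gene, while with DESeq2 it turned *GINS3* from 0.0016 to -0.00057. Among these 53 genes (the 43 and 10 others) the block in edgeR changed the call for *RRM2* (log2 fold change 0.13) and for the 8 others named with the block in the report. Of 1272 values of single genes, 1141 kept direction and call, 63 were past the limit only under the alternative, and 68 of 22 genes changed sign, none with a log2 fold change over 0.057 in size to begin with. With a library or pair left out these log2 fold changes ranged as follows: *CCNE2* -0.018 to 0.13, *CDC45* -0.033 to 0.034, *CDT1* -0.11 to 0.0020, *GINS1* -0.028 to 0.044, *GINS3* -0.053 to 0.057, *GINS4* -0.013 to 0.021, *MCM2* -0.064 to 0.0040, *MCM4* -0.067 to 0.0026, *MCM7* -0.062 to 0.012, *ORC1* -0.079 to 0.0022, *POLA1* -0.035 to 0.079, *POLD1* -0.020 to 0.052, *POLE* -0.0012 to 0.044, *POLE2* -0.032 to 0.050, *PRIM1* -0.023 to 0.095, *PRIM2* -0.0029 to 0.069, *RFC1* -0.014 to 0.075, *RFC3* -0.056 to 0.010, *RFC4* -0.030 to 0.0061, *RPA2* -0.017 to 0.049, *RPA3* -0.0084 to 0.062 and *TK1* -0.047 to 0.025. Other settings turned 5 of them. *CDC45* was at -0.031 with both TPM scales, and *RFC4* at 0.015. *POLE2* was at -0.0092 with RSEM expected counts and -0.0098 with the block added. *GINS3* was at -0.0029 without regard to strand, -0.00057 with library size alone and with DESeq2 and the block, and -0.0020 with library size alone and the block. *GINS1* was at -0.00075 with DESeq2, -0.0017 with the block added, -0.00068 with RLE factors, -0.0027 with library size alone, -0.0032 with the block added, -0.0010 with limma-voom, -0.00062 with the block added, -0.016 with log2(TPM + 0.1) and -0.016 with log2(TPM + 1).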
